A study of Mus musculus with 6 samples.

Results

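The genes described here mark the subfields of the mouse hippocampus and its excitatory neurons. They are 38 genes of the 36008 in the table of gene levels, taken by symbol from a list of subfield markers, whose rule uses no measured value although it was drawn up with earlier results of these data known. The list holds 11 genes of the dentate gyrus, 5 of CA3, 4 of CA2, 6 of CA1, 3 of the subiculum and 9 transcription factors shared by excitatory neurons. All 38 were found in the files through the mouse GENCODE M21 annotation (GRCm38). RNA-seq of polyA RNA was made from the whole hippocampus of 3 WT and 3 Prmt9 KO mice, all 2-week-old females of the B6J strain. The KO mice lack exon 5 of Prmt9 in the whole body, after germline deletion of a floxed allele with CMV-Cre, and the WT mice were littermates of the same sex. The labels list no treatment. The deposited values are the estimated count and the TPM (the transcript level scaled by length and library) of every annotated transcript in every mouse, and the labels number the mice 1 to 3 in each genotype.

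The hippocampus is a circuit of distinct excitatory neurons. Granule cells of the dentate gyrus send mossy fibers to CA3, CA3 and CA2 pyramidal cells project to CA1, and CA1 sends the output onward through the subiculum. Each of these cell types is known by a set of genes that it expresses more than its neighbors, such as Prox1 in granule cells and Wfs1 in CA1. In whole tissue the level of such a gene depends on both how many cells of the type there are and how much of the RNA each cell holds, and these cannot be told apart here.

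Libraries held between 194098391 and 286771677 estimated counts. The share of transcripts with an estimated count of 0 was 37.4% in WT replicate 1 and 22.8% to 24.8% in the other 5 mice. In a principal component analysis of log2 CPM (counts scaled by library size), the first component held 67.4% of the variance, with WT replicate 1 at −109.95, Prmt9 KO replicate 1 at −30.5 and the other 4 mice between 31.3 and 37.6. Prmt9 itself stood at 11.8, 15.2 and 14.96 TPM in WT and at 3.93, 4.61 and 4.67 TPM in Prmt9 KO. Its log2 fold change was −1.71 ± 0.10 (SE, n = 3 each) with an adjusted p of 0.0327 in edgeR's quasi-likelihood test, above the threshold of 0.01 used here. Because both mice numbered 1 stood apart, the value without one or both of them is given beside the results that it moves most.

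Of the 38 members, none was called between Prmt9 KO and WT. A gene was called where edgeR's quasi-likelihood test, fitted on 20315 genes with Benjamini-Hochberg adjustment, gave an adjusted p under 0.01 together with a change of more than 1.5-fold. The background was also 0%, with 0 of the 20315 genes called. At an unadjusted p below 0.05 there were 0 of 38 members, where 1.24% of all genes (252) passed, and DESeq2 called 2 of all genes (0.00709%) and 0 members. The edgeR log2 fold changes of the members ran from −0.82 in Plk5 to 0.26 in Fn1, with 28 below 0 and 10 above. Their median was −0.07, beside −0.01 over all genes tested. The SE of a member's log2 fold change lay between 0.08 (Lhx2) and 1.17 (Nts), and the wide SE of Nts comes from a fit without the number of the mouse. On the TPM scale the sign of the median turned. With limma on log2(TPM + 1), it was 0.02 over the members and 0.05 over all genes, and 10 of the 38 members changed the sign of their difference.

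**Figure D1:**
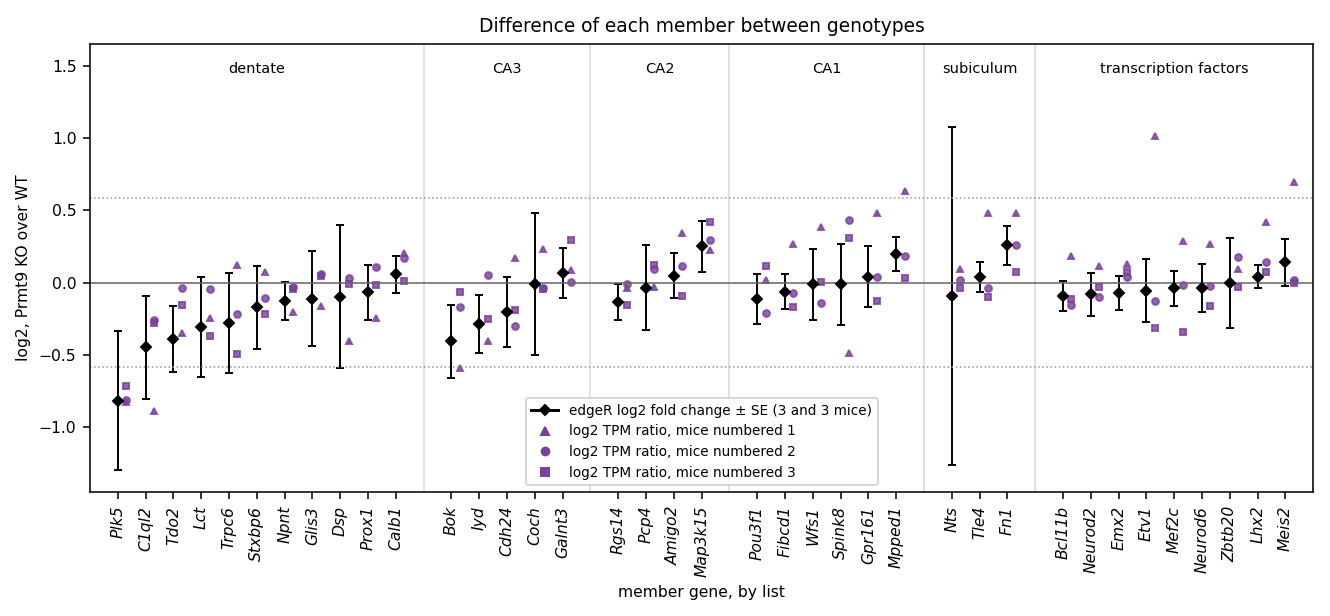
Difference between Prmt9 KO and WT of each member, on a log2 axis. Black diamonds are edgeR log2 fold changes with their SE (3 mice each), purple symbols are the log2 TPM ratios of the KO and the WT mouse of the same number, and dotted lines mark a 1.5-fold difference. Plk5 has all 3 purple symbols below the lower dotted line, and the SE bar of Nts spans most of the axis.

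The labels give both genotypes the numbers 1, 2 and 3, and deviations from the group means were correlated between mice of the same number. Deviations within a group cancel out, so the mice numbered 1 standing apart in both genotypes raises the correlation for every number. A pairing of the mice numbered 2 and 3 is therefore not shown. With the replicate number as a block in the edgeR fit, no member and no other gene was called, but 6 of 38 members had an unadjusted p below 0.05, beside 5.75% of all genes. These were the dentate genes Plk5, C1ql2, Lct and Stxbp6 and the CA3 gene Cdh24, each lower in Prmt9 KO, and the subiculum gene Fn1, which was higher. The smallest adjusted p among the members in that fit was 0.79. Without both mice numbered 1, 9 of 38 members had an unadjusted p below 0.05, beside 16.4% of all genes, and the smallest adjusted p was 0.0797, for Plk5. With a term that sets the mice numbered 1 apart in place of the block, 8 members had an unadjusted p below 0.05, beside 9.74% of all genes. No edgeR, DESeq2 or limma fit that was run called a member.

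Levels differed far more from member to member than between the genotypes, also within a list. The mean over the 6 mice ran from 1.46 TPM in Map3k15, a kinase of the MAP kinase cascade, to 416 TPM in Pcp4, a small calmodulin-binding protein, and both are on the CA2 list. The highest dentate gene was Calb1 at 39.5 TPM, the highest CA3 gene Bok at 103, the highest CA1 gene Mpped1 at 123, the highest subiculum gene Fn1 at 52.8 and the highest transcription factor Neurod6 at 129. All 38 members had a mean of at least 1 TPM, so every list was represented in the tissue. Many of these genes are also made outside the subfield that they are listed for, such as Calb1 in interneurons and CA1, so a level is not that of one cell type.

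**Figure D2:**
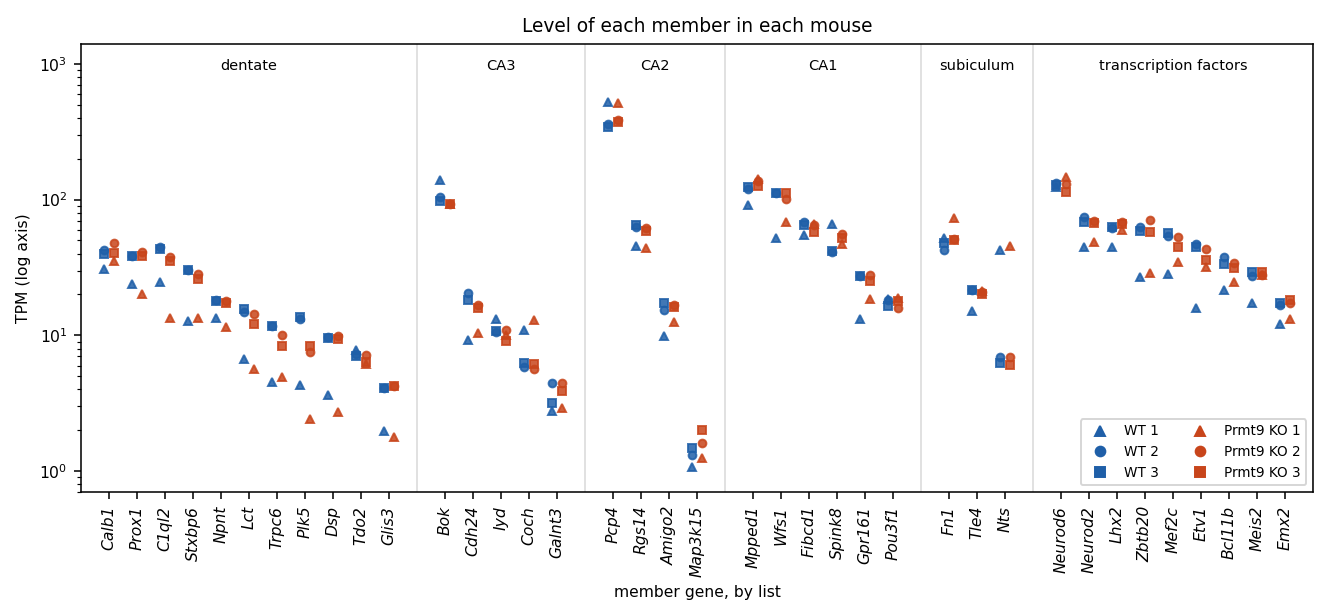
Level of each of the 38 members in each of the 6 mice, in TPM on a log axis, grouped by list and ordered by mean level. Blue is WT, orange-red is Prmt9 KO, and the triangle, circle and square are the mice numbered 1, 2 and 3. Pcp4 is highest and Map3k15 lowest, and in most dentate genes both triangles lie below the other 4 symbols.

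None of the 11 dentate genes was called. Of the 11, 10 had an edgeR log2 fold change below 0, with a median of −0.17, beside 53.1% of all genes below 0. This count rested in part on Prmt9 KO replicate 1. Without it 6 of 11 were below 0 with a median of −0.01, and without both mice numbered 1 it was 7 of 11 with a median of −0.06. Calb1, the calcium buffer calbindin, was the exception at 0.06. Its level was 30.8, 42.7 and 40.0 TPM in WT and 35.5, 47.9 and 40.3 TPM in Prmt9 KO. The genotypes overlapped, and the mouse numbered 1 was lowest in each in TPM. On TMM-scaled CPM WT replicate 1 was instead the highest WT mouse (85.9, 70.5 and 71.5).

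Plk5, a member of the polo-like kinase family that is expressed in brain, had the largest difference of any member. Its level was 4.31, 13.2 and 13.7 TPM in WT and 2.43, 7.55 and 8.33 TPM in Prmt9 KO. The groups overlapped only because of the low value in WT replicate 1. The edgeR log2 fold change was −0.82 ± 0.48 (SE, n = 3 each) with an unadjusted p of 0.138 and an adjusted p of 0.9999, and the mouse numbered 1 held about as small a share of the level of the other mice in WT (0.32) as in Prmt9 KO (0.31). Between mice of the same number, the KO level was 0.56, 0.57 and 0.61 of the WT level. Without both mice numbered 1 the log2 fold change was −0.73 (adjusted p = 0.0797, edgeR), and with the block it was −0.89 (adjusted p = 0.79). Over all alternatives its adjusted p lay between 0.0797 and 0.999997.

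C1ql2, a secreted C1q-like protein that granule cells release at mossy fiber synapses, came next. It stood at 24.8, 44.8 and 43.0 TPM in WT and at 13.4, 37.5 and 35.5 TPM in Prmt9 KO. Each KO mouse was lower than the WT mouse of its number, at 0.54, 0.84 and 0.82 of its level, while the ranges overlapped. The edgeR log2 fold change was −0.45 ± 0.36 (SE, n = 3 each), with an unadjusted p of 0.254. It was −0.13 without Prmt9 KO replicate 1, and −0.26 without both mice numbered 1 (adjusted p = 0.123, edgeR). C1ql2 and the genes named below beside those of highest level, largest fold change or no overlap were picked after their values were seen.

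The other dentate genes moved less or with more spread. Prox1, the homeodomain factor that sets granule cell fate, was at 24.0, 38.4 and 38.6 TPM in WT and at 20.3, 41.4 and 38.2 TPM in Prmt9 KO. The means differed by far less than the spread, with a log2 fold change of −0.07 ± 0.19 (SE). Dsp, the junction protein desmoplakin, was at 3.64, 9.75 and 9.55 TPM in WT and at 2.75, 9.98 and 9.48 TPM in Prmt9 KO. Here the mouse numbered 1 differed from the other 2 of its genotype by much more than the genotypes did. The remaining 7 are Tdo2 (tryptophan dioxygenase), Lct (lactase), Npnt (the matrix protein nephronectin), Glis3 (a zinc finger factor), Trpc6 (a cation channel) and Stxbp6 (a SNARE-binding protein), together with Calb1 given above. Apart from Calb1, their log2 fold changes ran between those of C1ql2 and Dsp.

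**Figure D3:**
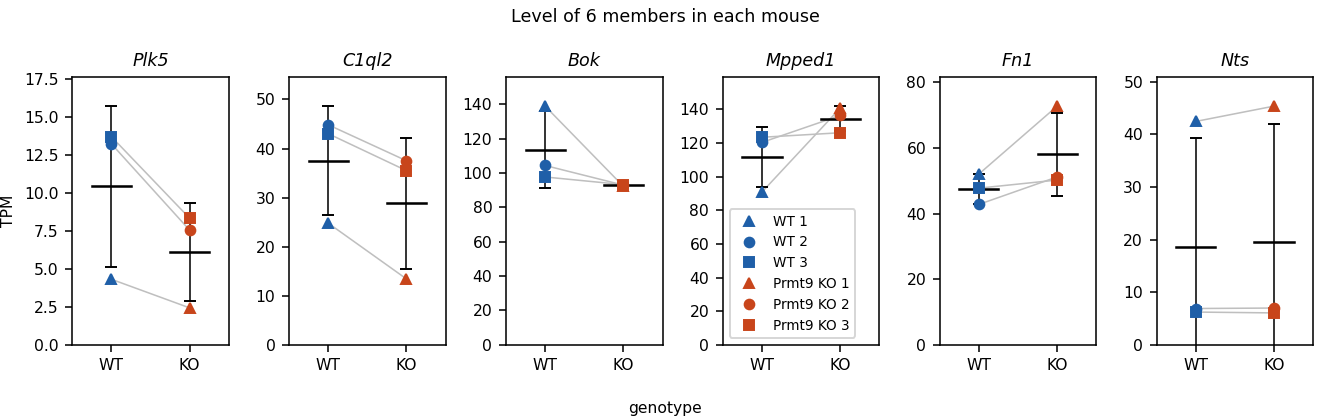
Level of Plk5, C1ql2, Bok, Mpped1, Fn1 and Nts in each mouse, in TPM on linear axes that start at 0. Symbols mark the number of the mouse, gray lines join the WT and the Prmt9 KO mouse of the same number, and black bars are the mean and SD (n = 3). In Plk5 and C1ql2 all 3 gray lines slope down, and in Nts both mice numbered 1 lie far above the other 4.

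When the mice were compared within each number, 7 of the 38 members were lower in the KO mouse in all 3 numbers, where 8.18% of the 15200 genes with a mean of at least 1 TPM were. Of these 7, 5 were dentate genes (C1ql2, Tdo2, Lct, Npnt and Plk5), and the others were Bok and Rgs14. Another 7 members were higher in all 3 numbers (Calb1, Galnt3, Map3k15, Mpped1, Fn1, Lhx2 and Emx2), beside 20.1% of all genes. These counts are in TPM and depend on the scale. On TMM-scaled CPM Tdo2 was no longer lower in every number, and Calb1, Galnt3, Map3k15 and Emx2 were no longer higher. Trpc6, Stxbp6, Iyd, Cdh24, Neurod2 and Bcl11b were instead lower in every number on that scale. The shares of all genes were counted in TPM only. In TPM the median log2 ratio over all genes was 0.20 between the mice numbered 1, −0.01 between those numbered 2 and −0.00 between those numbered 3. The mice numbered 1 are thus read against a background above 0.

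The CA3 genes were led by Bok, a protein of the BCL-2 family. It stood at 139, 104 and 97.8 TPM in WT and at 92.3, 93.0 and 93.3 TPM in Prmt9 KO, so every KO mouse lay below every WT mouse. This was 1 of 2 members whose groups did not overlap in TPM, beside 5.97% of all 15200 genes, and in 1.15% of all genes the KO mice were the lower group. The log2 fold change in edgeR was −0.41 ± 0.25 (SE, n = 3 each) with an unadjusted p of 0.156. WT replicate 1 carried most of the difference, and without it the log2 fold change was −0.05. On TMM-scaled CPM the groups overlapped, as the lowest WT value was 62.7 and the highest KO value 66.6.

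Of the other 4 CA3 genes, Iyd (iodotyrosine deiodinase) and Cdh24 (a cadherin) had log2 fold changes of −0.29 and −0.20, and Galnt3 (a glycosyltransferase) and Coch (the matrix protein cochlin) had 0.07 and −0.01. Coch was at 11.004, 5.84 and 6.31 TPM in WT and at 12.9, 5.70 and 6.11 TPM in Prmt9 KO. It was higher in both mice numbered 1 than in the other 4, which lay within 1 TPM of each other.

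On the CA2 list, Pcp4 made up 80.3% to 90.3% of the summed level of the 4 genes. It was at 521, 363 and 342 TPM in WT and at 511, 387 and 372 TPM in Prmt9 KO, with a log2 fold change of −0.04 ± 0.30 (SE, n = 3 each). Both mice numbered 1 were above the other 4. In the annotation 23.7% of its exonic bases are shared with Igsf5 on the same strand, so some of its reads may be split between both genes. Map3k15 had the largest fold change of the list, with 1.08, 1.32 and 1.49 TPM in WT and 1.26, 1.62 and 2.00 TPM in Prmt9 KO. In TPM each KO mouse was higher than the WT mouse of its number, and the groups overlapped. The log2 fold change was 0.25 ± 0.18 (unadjusted p = 0.202 in edgeR). Of its exonic bases, 13.9% lie opposite exons of Pdha1. Amigo2, an adhesion protein, and Rgs14, a regulator of G protein signaling that limits plasticity in CA2, had log2 fold changes of 0.05 and −0.13.

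The CA1 genes gave the other member whose groups did not overlap. Mpped1, a metallophosphoesterase of the developing brain, was at 90.8, 120 and 123 TPM in WT and at 141, 136 and 126 TPM in Prmt9 KO. Every KO mouse lay above every WT mouse, in TPM and in CPM, and 4.82% of all genes did so in TPM. Between mice numbered 3 the levels were 1.02-fold apart, and the log2 fold change was 0.20 ± 0.12 (SE, n = 3 each; edgeR, unadjusted p = 0.145). It was 0.10 without Prmt9 KO replicate 1 and 0.10 without both mice numbered 1.

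Spink8, a serine protease inhibitor of CA1 pyramidal cells, was at 66.2, 41.3 and 42.0 TPM in WT and at 47.2, 55.5 and 52.0 TPM in Prmt9 KO. In the mice numbered 1 the KO level was lower (0.71 of WT), and in those numbered 2 and 3 it was higher (1.35 and 1.24). The log2 fold change was −0.01 ± 0.28 over all mice and 0.41 without both mice numbered 1 (adjusted p = 0.105, edgeR). Wfs1, the endoplasmic reticulum protein wolframin, was at 52.3, 111 and 111 TPM in WT and at 68.2, 101 and 111 TPM in Prmt9 KO, with the mouse numbered 1 lowest in each genotype. Fibcd1 (a receptor for acetylated groups), Pou3f1 (a POU factor) and Gpr161 (a G protein-coupled receptor of the cilium) had log2 fold changes between −0.11 and 0.04.

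In the subiculum list, Fn1, which encodes fibronectin, was at 52.0, 42.8 and 47.7 TPM in WT and at 72.7, 51.1 and 50.2 TPM in Prmt9 KO. The KO mouse was higher in each number, by 1.40-, 1.20- and 1.05-fold, and the ranges overlapped because the 2 lower KO values were below WT replicate 1. The log2 fold change was 0.26 ± 0.13 (SE, n = 3 each), with the smallest unadjusted p of the members, 0.0991. With the replicate number as a block its unadjusted p was 0.00639 and its adjusted p 0.79 (edgeR). The fold change was 0.16 on the log2 scale when Prmt9 KO replicate 1 was left out. Fibronectin is also made by vascular cells. The 5 endothelial and mural genes summed to 187, 135 and 139 TPM in WT and to 181, 120 and 135 TPM in Prmt9 KO, and their part in the Fn1 level was not tested.

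Nts, the neuropeptide neurotensin, had the widest spread of all members. It stood at 42.5, 6.90 and 6.22 TPM in WT and at 45.4, 6.99 and 6.06 TPM in Prmt9 KO. Its level in the mouse numbered 1 was 6.47 times the mean of the other 2 in WT and 6.96 times in Prmt9 KO. The KO mouse was within 1.07-fold of the WT mouse in every number, although the coefficient of variation over the 6 mice was 102%. The edgeR log2 fold change was −0.09 ± 1.17 (SE, n = 3 each), and the fit with the block gave −0.05 (unadjusted p = 0.566). It was 1.68 without WT replicate 1 and −1.77 without Prmt9 KO replicate 1. Tle4, a Groucho family corepressor, had a log2 fold change of 0.04.

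The shared transcription factors had the narrowest range of fold changes of the 6 lists. Their log2 fold changes lay between −0.09 (Bcl11b) and 0.14 (Meis2), with 7 of 9 below 0 and a median of −0.04. The direction turned on the TPM scale, where limma on log2(TPM + 1) gave 3 of 9 below 0 and a median of 0.07, and without Prmt9 KO replicate 1 or WT replicate 2 the edgeR counts were 4 and 3 of 9. Neurod6, a basic helix-loop-helix factor of postmitotic pyramidal neurons, was at 123, 132 and 128 TPM in WT and at 148, 129 and 114 TPM in Prmt9 KO. Meis2, a TALE homeodomain factor, was at 17.2, 27.6 and 29.5 TPM in WT and at 27.9, 27.9 and 29.4 TPM in Prmt9 KO. Only WT replicate 1 stood apart in Meis2, and without it the log2 fold change was −0.00 in place of 0.14. The other 7 are Neurod2, Zbtb20 (a repressor that sets hippocampal identity), Lhx2 and Emx2 (factors that pattern the early hippocampus), Bcl11b, Etv1 and Mef2c. Zbtb20 was at 27.1, 62.4 and 58.9 TPM in WT and at 29.0, 70.6 and 57.5 TPM in Prmt9 KO, again with the mouse numbered 1 lowest in both.

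Summed over each list in TPM, no subfield separated the genotypes except CA3. The dentate sum was 135, 235 and 231 TPM in WT and 118, 226 and 206 TPM in Prmt9 KO. The CA3 sum was 175, 146 and 136 TPM in WT and 129, 131 and 128 TPM in Prmt9 KO, and Bok made up 71.1% to 79.4% of it. The CA3 groups thus stood apart as Bok did, and on TMM-scaled CPM they overlapped, with a lowest WT sum of 111 and a highest KO sum of 112.

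The sums for CA1 were 296, 386 and 386 TPM in WT and 359, 401 and 390 TPM in Prmt9 KO. For CA2 they were 577, 442 and 426 TPM against 569, 467 and 449 TPM, and for the subiculum 110, 71.1 and 75.6 TPM against 139, 79.0 and 76.4 TPM. The ranges overlapped in all 3. The dentate sum divided by the CA1 sum was 0.46, 0.61 and 0.60 in WT and 0.33, 0.56 and 0.53 in Prmt9 KO. In TPM this ratio was lower in the KO mouse of each number, and the groups overlapped. On TMM-scaled CPM the mice numbered 2 did not follow. Their dentate sums were 497.3 in WT and 501.5 in Prmt9 KO, and their CA1 sums 705.3 and 705.9.

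**Figure D4:**
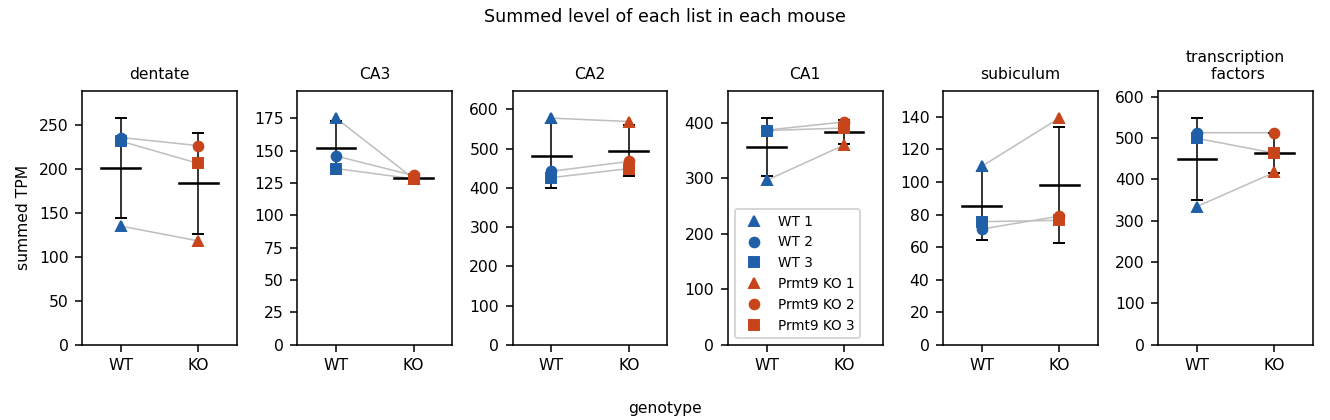
Summed TPM of each of the 6 lists in each mouse, on linear axes that start at 0. Symbols mark the number of the mouse, gray lines join mice of the same number, and black bars are the mean and SD (n = 3). Both mice numbered 1 are lowest in the dentate and transcription factor sums and highest in the CA2 and subiculum sums.

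The levels of many members also moved with the number of the mouse. Both mice numbered 1 lay below the other 4 in 24 of the 38 members, beside 48.7% of all 15200 genes, with 10 of 11 dentate genes and 7 of 9 transcription factors among them. They lay above the other 4 in 5 members (Coch, Pcp4, Pou3f1, Fn1 and Nts), beside 22.1% of all genes. These counts are in TPM and depend in part on the scale. On TMM-scaled CPM both mice numbered 1 were no longer below the rest in Calb1, Map3k15, Lhx2, Emx2, Bcl11b and Mef2c, while in Meis2 they were. They were no longer above the rest in Fn1 on that scale, while in Iyd, Fibcd1 and Neurod6 they were. Longer transcripts tended to be lower in these mice. Across the 38 members, which share the same libraries, Spearman's rho between transcript length and the log2 ratio of mouse 1 to the other 2 was −0.49 in WT and −0.42 in Prmt9 KO, and over 15178 genes it was −0.43 and −0.31. Members with the smallest coefficient of variation over the 6 mice were Pou3f1 (6.58%), Fibcd1 (8.24%), Neurod6 (8.50%) and Tdo2 (8.93%). What the number stands for is not stated, and its part in the dentate differences was not tested beyond the fits with the block and without these mice.

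Markers of some other cells also moved with the number. The 6 oligodendrocyte genes summed to 1972, 11418 and 9952 TPM in WT and to 1032, 7853 and 11009 TPM in Prmt9 KO, lowest in both mice numbered 1. The 6 choroid plexus genes summed to 7278, 612 and 2012 TPM in WT and to 869, 2339 and 3351 TPM in Prmt9 KO, in no order with genotype or number. Their part in the members' levels was not tested. The 6 general excitatory genes, which include the vesicular glutamate transporters, summed to 1587, 2736 and 2664 TPM in WT and to 1652, 2688 and 2578 TPM in Prmt9 KO. Of these 6, both mice numbered 1 lay below the rest in 3 and above in 3, beside 48.7% and 22.1% of all genes. The 8 inhibitory genes summed to between 1133 and 1225 TPM in all mice, a sum led by Sst at 638 to 760 TPM. Both mice numbered 1 lay below the rest in 4 of the 8 inhibitory genes and above in 1, against the same shares of all genes.

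Among the dentate genes lower in the KO mouse of every number, Plk5 and C1ql2 had the largest fold changes, so the 250 bases upstream of their starts are shown (RefSeq, GRCm38.p6). Capitals mark the E-box CANNTG, the core motif of basic helix-loop-helix factors such as Neurod2 and Neurod6, which reads alike on both strands.
Plk5, chr10:80356209-80356458, plus strand: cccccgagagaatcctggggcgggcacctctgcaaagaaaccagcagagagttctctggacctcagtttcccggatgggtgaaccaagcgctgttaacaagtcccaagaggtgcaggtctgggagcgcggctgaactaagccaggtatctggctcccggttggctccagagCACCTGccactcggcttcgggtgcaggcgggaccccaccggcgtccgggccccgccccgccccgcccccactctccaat
C1ql2, chr1:120340332-120340581, plus strand: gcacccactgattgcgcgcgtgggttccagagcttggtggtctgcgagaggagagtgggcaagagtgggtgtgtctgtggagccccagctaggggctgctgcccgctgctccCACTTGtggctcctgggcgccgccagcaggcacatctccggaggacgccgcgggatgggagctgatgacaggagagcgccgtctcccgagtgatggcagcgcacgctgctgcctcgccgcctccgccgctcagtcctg
Each holds 1 such motif. It was found in 22 of 41 upstream windows of the members (53.7%, from 32 genes with an entry), beside 66.2% of all 32851 windows of that length. The variant CAGATG was in 19.5% of the members' windows and 14.4% of all, and CAGCTG in 4.88% and 13.001%.

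As the study examined splicing, the transcripts of the members were compared as well. Relative transcript usage was tested in edgeR with a Simes test per gene over 13560 genes, called at an adjusted p below 0.01. Of the 30 members with at least 2 transcripts past the filter, 0 were called and 0 had an unadjusted p below 0.05, beside 0.17% called (23 genes) and 1.73% at an unadjusted p below 0.05 over all genes. With the replicate number as a block, 13 genes were called and again 0 members. The smallest unadjusted p values were those of Etv1 (0.0574), Trpc6 (0.133), Meis2 (0.142), Lct (0.452) and Tle4 (0.461).

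Transcript usage depended on WT replicate 1, the library with most transcripts at 0. Without it 143 genes were called, and Etv1 had an unadjusted p of 0.000187 and an adjusted p of 0.0154 (edgeR), while Meis2 had an unadjusted p of 0.0097. These were the only 2 members with an unadjusted p below 0.05 in that fit, beside 5.89% of all genes, and without both mice numbered 1 there were 3 such members, beside 7.9%. No member was called in any usage fit that was run. Of 79 isoforms in 25 members that made up 5% to 95% of the gene's TPM, the groups did not overlap in 4 (5.06%), beside 9.45% of 40056 isoforms over all genes.

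The shares below are given for single events and isoforms, and with 3 mice per genotype the smallest p of a two-sided exact permutation test is 0.1. The annotated events below, which change coding sequence, are shown with the alternative bases in capitals and 15 bases of the neighboring exons on each side in lower case, in the direction of transcription (GENCODE M21, GRCm38).
Meis2-205, chr2:115867359-115867379, minus strand, 21 bases added by an upstream 3′ splice site: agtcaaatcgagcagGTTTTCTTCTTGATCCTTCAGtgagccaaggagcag
Spink8-202, chr9:109824509-109824551, plus strand, a skipped exon of 43 bases: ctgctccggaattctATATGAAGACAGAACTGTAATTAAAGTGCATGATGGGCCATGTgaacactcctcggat
Trpc6-201, chr9:8649298-8649531, plus strand, a skipped exon of 234 bases: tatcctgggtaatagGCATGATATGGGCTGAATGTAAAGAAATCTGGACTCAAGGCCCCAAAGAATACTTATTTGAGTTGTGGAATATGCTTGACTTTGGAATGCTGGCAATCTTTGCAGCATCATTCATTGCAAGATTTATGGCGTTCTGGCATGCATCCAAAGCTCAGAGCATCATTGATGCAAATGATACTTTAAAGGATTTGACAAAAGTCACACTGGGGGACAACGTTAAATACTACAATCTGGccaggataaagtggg
The Meis2 and Trpc6 stretches keep the reading frame, and that of Spink8 leaves a remainder of 1 base.

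In Meis2, the 21 bases were present in 40.9%, 53.6% and 52.0% of the TPM of the transcripts that cross the site in WT and in 39.7%, 42.9% and 40.3% in Prmt9 KO. The share was lower in the KO mouse of each number, and the groups overlapped through WT replicate 1 (exact permutation p = 0.2). The pair of isoforms Meis2-205 and Meis2-206, of 3718 and 3697 bases, differ in length by these 21 bases. Meis2-205 held 20.5%, 22.7% and 20.2% of the gene's TPM in WT and 10.3%, 11.4% and 20.6% in Prmt9 KO. Meis2-206, without the bases, held 0.35%, 0.32% and 2.39% in WT and 8.45%, 10.8% and 2.45% in Prmt9 KO. Meis2-205 was lower and Meis2-206 higher in Prmt9 KO replicates 1 and 2 than in any WT mouse, while in replicate 3 both shares were within the WT range or near it.

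Trpc6 included its exon in 50.5%, 87.8% and 86.8% of the TPM in WT and in 97.2%, 94.8% and 88.3% in Prmt9 KO. Every KO mouse was above every WT mouse (exact permutation p = 0.1), but WT replicate 1 accounted for most of the gap, as its share of Trpc6-202, the isoform without the exon, was 44.8%, and that of WT replicates 2 and 3 was 8.01% and 9.09%. At 4.52 TPM it also had the lowest Trpc6 level of all mice.

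In Spink8 the exon of 43 bases was included in 48.6%, 44.1% and 45.4% of the TPM in WT and in 53.1%, 50.7% and 54.4% in Prmt9 KO. The groups did not overlap, with means of 46.0% ± 2.3 and 52.7% ± 1.9 (SD, n = 3, exact permutation p = 0.1). This held in the mice numbered 2 and 3 as in those numbered 1, and the difference was 6.73 percentage points in TPM and 6.57 in estimated counts. The usage test over all transcripts of Spink8 gave an unadjusted p of 0.744 (edgeR).

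Etv1, an ETS factor, had several isoforms with small shares. Etv1-202 held 23.4%, 25.8% and 24.3% of the gene's TPM in WT and 22.5%, 21.8% and 22.8% in Prmt9 KO. Etv1-209, a noncoding transcript, was listed at 0 in all 3 WT mice and held 1.74%, 1.20% and 1.02% in Prmt9 KO. A listed 0 can be a failed estimate, and in estimated counts the mean difference in Etv1-209 was 0.20 percentage points. Lct-202, annotated as a retained intron, held 0%, 1.55% and 3.07% in WT and 2.36%, 4.27% and 7.63% in Prmt9 KO. It was higher in the KO mouse of each number, and the groups overlapped. In Tle4, the isoform Tle4-202 held less than 1% in every mouse.

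Of the 30 annotated skipped exons and alternative splice sites that could be measured in 15 members, the groups stood apart in 3 (10%), beside 11.1% of 13027 events over all genes. These were the exons of Trpc6 and Spink8 and an exon of 164 bases in Zbtb20 (chr16:43508159-43508322). The Zbtb20 share was taken over Zbtb20-207, which holds the exon, and Zbtb20-208 and Zbtb20-220, which skip it, of 21 transcripts of the gene. Together these held as little as 2.27 TPM in a mouse. The exon was included in 15.2%, 43.4% and 43.2% of their TPM in WT and in 52.7%, 46.9% and 52.9% in Prmt9 KO. WT replicate 1 was again the low value, and in the mice numbered 2 the KO share was only slightly above the WT share. In Plk5, whose level differed most, the alternative 3′ splice site that adds 12 bases was used in 25.6%, 8.02% and 12.2% in WT and in 34.2%, 3.27% and 12.5% in Prmt9 KO, so the groups overlapped fully.

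**Figure D5:**
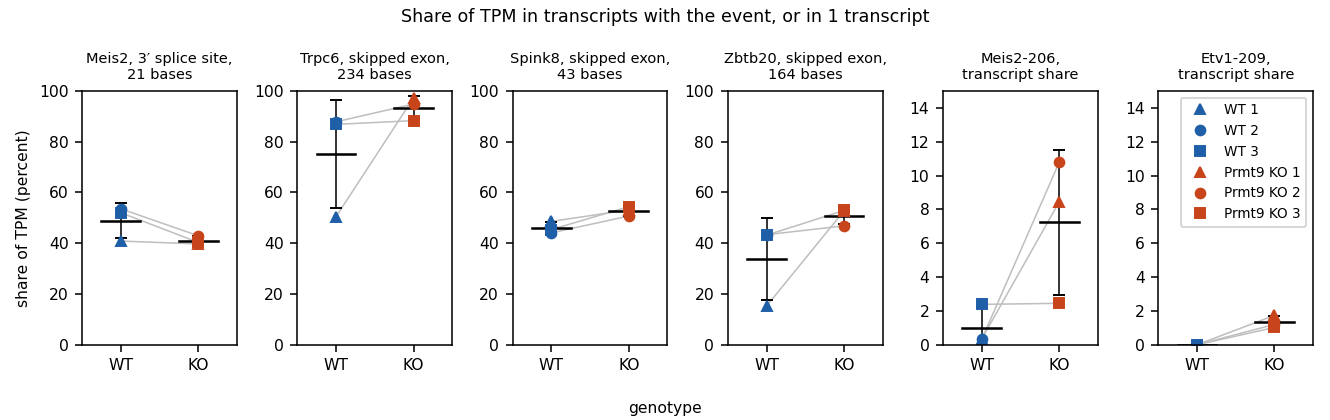
Share of TPM, in percent, in transcripts that hold the event (first 4 panels, axis 0 to 100) or in 1 transcript of the gene (last 2 panels, axis 0 to 15), in each mouse. Symbols mark the number of the mouse, gray lines join mice of the same number, and black bars are the mean and SD (n = 3). The Spink8 groups are apart, and in Trpc6 and Zbtb20 the low WT value is replicate 1.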

How the data were processed

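The authors made polyA+ stranded (TruSeq) libraries and quantified the paired-end reads per transcript with kallisto (0.46.0 in the submitters' processing notes) on mouse GRCm38. The deposited files hold an estimated count and a TPM per transcript and mouse, and a table of TPM per gene that the authors summed. Whether kallisto was run with strand is not given in the sources used here, and 8 members share exonic bases with a gene on the opposite strand. Of 118783 transcripts, 116622 were matched to GENCODE M21. Estimated counts were summed per gene and rounded. Genes past edgeR's filterByExpr were scaled by TMM and tested with edgeR 4.0.16 (quasi-likelihood F test, R 4.3.3) over all 6 mice without covariates. Transcript usage was tested with diffSpliceDGE, and DESeq2 1.42.0 and limma 3.58.1 served as alternatives. The low-level filter for TPM comparisons was a mean of 1 TPM. Only the edgeR gene test and the edgeR usage test, both without covariates, were tried on simulated counts. The simulation gave all genes the same dispersion and held no effect of the mouse number, so it does not show how the tests perform on these data. Isoform shares were TPM of a transcript over that of its gene.

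The members and lists were chosen with earlier results of these data known. Named by rule with the value in every mouse were, per list, the gene of highest mean TPM, that of largest fold change and those whose groups did not overlap. For isoforms the rule took the 5 members with the smallest usage p. The other genes and events given by mouse lay outside this rule and were picked after their values were seen. Among them are C1ql2, Prox1, Dsp, Coch, Wfs1, Nts and Zbtb20, and the events of Spink8, Zbtb20 and Plk5. Deviations from the group means were correlated between same-numbered mice (0.55, 0.41 and 0.38 for numbers 1, 2 and 3), with the numbers taken from the sample titles. Deviations within a group cancel out, so the mice numbered 1 standing apart raises all of these values. Mice of unlike number were not compared, so the values do not show that those numbered 2 and 3 are paired. The main fits leave the number out.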

Additional observations from a re-analysis of the deposited data

How the results depend on the processing

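With 15 alternatives to the gene test, 0 members were called in each. Over all genes the count of calls was 0 in the main test, 2 with DESeq2's Wald test, 1 with a term for the mice numbered 1 and 1 without both mice numbered 1 (an alternative chosen after seeing the data). With the replicate block it stayed 0, and in the usage test the block gave 13 genes in place of 23. The usage test called 1 gene when each transcript had to reach 10 counts in all mice, 52 with a term for the mice numbered 1, 249 without both mice numbered 1 and between 9 and 143 when 1 mouse was left out (143 without WT replicate 1). Members whose groups do not overlap in TPM numbered 2, but 1 on TMM-scaled CPM, 19 without both mice numbered 1 and between 2 and 15 when 1 mouse was left out (15 without WT replicate 1, 4 without WT replicate 3, 5 without Prmt9 KO replicate 1 and 4 without Prmt9 KO replicate 2). Of the 19, 7 were above and 12 below, beside 23.3% and 27.9% of all genes. Of the 15, 4 were above and 11 below, beside 2063 and 3232 of 15200 genes. Without Prmt9 KO replicate 1 it was 4 and 1, beside 2114 and 877 genes. Leaving out WT replicate 3 gave 2 and 2, beside 1138 and 294, and leaving out Prmt9 KO replicate 2 gave 1 and 3, beside 1071 and 263. On TMM-scaled CPM the 1 member was above, beside 463 genes above and 498 below of 15120. The sign of the log2 fold change was the same in all alternatives for 15 of 38 members, Plk5, C1ql2, Bok, Mpped1 and Fn1 among them, and no member whose fold change exceeded its SE changed sign. In estimated counts the isoform differences of short transcripts shrank, to −0.27 percentage points for Etv1-202, 0.20 for Etv1-209 and 0.26 for Lct-202. Unlike TPM, estimated counts are not scaled by transcript length, and how much of the shrinkage this makes up was not tested. With 3 mice each and SEs up to 1.17 in the fit without the block, small differences in the members were not detectable. The same fit did not call Prmt9 itself, at a log2 fold change of −1.71 (adjusted p = 0.0327, edgeR). A member without a call may thus also differ by more than a small amount.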
